A study of Mus musculus with 4 samples.

Results

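The FGF and MAPK feedback genes of the mouse were examined for binding by the transcription factor OTX2 on the way from epiblast stem cells (EpiSCs) to definitive endoderm (DE). Members were defined by a rule on gene names among the protein-coding genes of RefSeq. The set was chosen with earlier results of these data known. It takes the numbered Fgf ligands, the receptors Fgfr1 to Fgfr4, the Sprouty (Spry), Spred and numbered Dusp genes, and the ETS factor genes Etv1, Etv4 and Etv5. The rule found 60 of 21900 genes. One of them, Spry3, is listed on X at a coordinate out of order with the genes around it. It was taken as unplaced and no region could be assigned to it, so 59 members of 21774 placed genes remained.

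OTX2 was located by CUT&RUN, in which an antibody directs a nuclease to a protein on chromatin and the released DNA is sequenced. The libraries described here are 4 primitive streak (PS) libraries from lines labelled OTX2-dTAG-EGFP, of BL6/129 hybrid genotype, in which OTX2 carries an HA tag. Of these, 3 used an anti-HA antibody on the separately named lines 7H, 7H1 and 7H2, and 1 used control IgG on line 7H2. The EpiSC medium held Activin A at 20 ng/ml, FGF2 at 12.5 ng/ml and NVP at 175 nM. PS cells were taken after 16 h with Activin A at 40 ng/ml and CHIR, a WNT pathway activator, at 3 uM. DE cells followed after 24 h more with Activin A at 100 ng/ml and LDN, a BMP receptor inhibitor, at 100 nM. FGF2 is named for the EpiSC medium and for neither later step. The values are 4 lists of regions, bound in EPI and PS, in PS only, in PS and DE, or in DE only (EPI is the spelling of the list name, which is not explained). The libraries behind the EPI and DE calls were not analysed here. A region has a position and a width, with no height and no value per library. Depth is therefore unknown, no spread between libraries can be given, anti-HA cannot be set against IgG, and no test was run.

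FGF ligands bind receptor tyrosine kinases and activate RAS and the ERK kinases. Cells answer by making inhibitors of the same route: Sprouty and Spred proteins act on the signal between receptor and RAF, dual-specificity phosphatases (the Dusp genes) remove phosphate from MAP kinases, and the ETS factors of the PEA3 group (Etv1, Etv4 and Etv5) are made as targets of the signal. In the gastrulating mouse embryo, Fgf4 and Fgf8 are made in the streak and Fgfr1 is needed for cells to leave it.

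OTX2 regions were found at most of these genes, and a region that PS and DE share was found at a larger share of members than of genes at large. A region belonged to the gene around its midpoint, the shortest where several overlap, and failing that to the closest gene end up to 100 kb away. The 59 members held 170 regions: 2 of EPI and PS, 9 of PS only, 35 of PS and DE, and 124 of DE only. At least 1 EPI and PS region was found at 2 members (3.39%), against 1.46% of all protein-coding genes. PS only regions were found at 7 members (11.9%, against 5.63% of all genes). PS and DE regions were found at 18 members (30.5%, against 16.4% of all genes), and DE only regions at 41 members (69.5%, against 50.4% of all genes). Any region at all was found at 42 members (71.2%, against 55.0% of all genes), and 17 placed members had 0. The median was 2 regions per member, against 1 per gene over all genes. With 2, 7 and 18 members behind them, the first 3 shares rest on few genes.

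**Figure D1:**
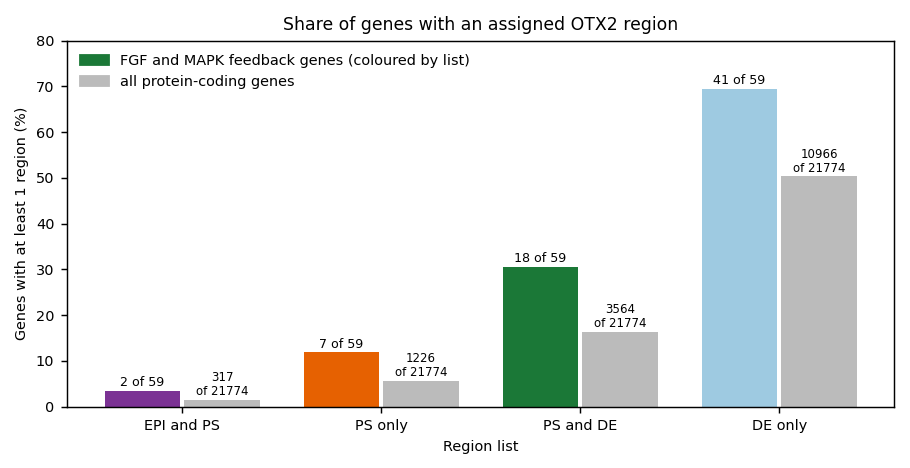
Percentage of genes with at least 1 assigned OTX2 region (y axis) in each region list (x axis), for FGF and MAPK feedback genes (coloured) and all protein-coding genes (grey), with the gene counts above the bars. The coloured bar is the higher of each pair, with 30.5% against 16.4% for PS and DE and 69.5% against 50.4% for DE only.

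Members and genes at large also differ in the length of DNA from which a gene collects regions, here called its territory. Its part in the shares above was not tested. The median territory was 59 kb for members and 45 kb for all genes. If all assigned regions were spread evenly over all territories, the members would hold 123 in place of 170 (1.38 times). By list, the counts were 1.67 times that number for EPI and PS (2 against 1.19), 1.77 times for PS only (9 against 5.09), 1.82 times for PS and DE (35 against 19.2) and 1.27 times for DE only (124 against 98.0). PS and DE regions made up 20.6% of the members' regions and 15.6% of those of all genes, and DE only regions, the longest list, made up 72.9% and 79.4%. Regions at 1 gene are not independent, and these ratios carry no test.

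Of the 18 members with a PS and DE region, 17 also had a DE only region (94.4%, against 79.8% of all genes with a PS and DE region). The exception was Dusp9. At each of these 17, regions of the 2 lists came within 50 kb of each other (94.4% of the 18, against 73.1% of all genes with a PS and DE region). The distance between the midpoints of a PS and DE region and the nearest DE only region of the same gene had a median of 5.56 kb over 34 regions, and ranged from 0.164 kb at Dusp4 to 48.1 kb at Etv5. A region in any list that includes PS was found at 20 members (33.9%, against 20.2% of all genes), and 19 members had regions of more than 1 list (32.2%, against 16.0% of all genes).

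**Figure D2:**
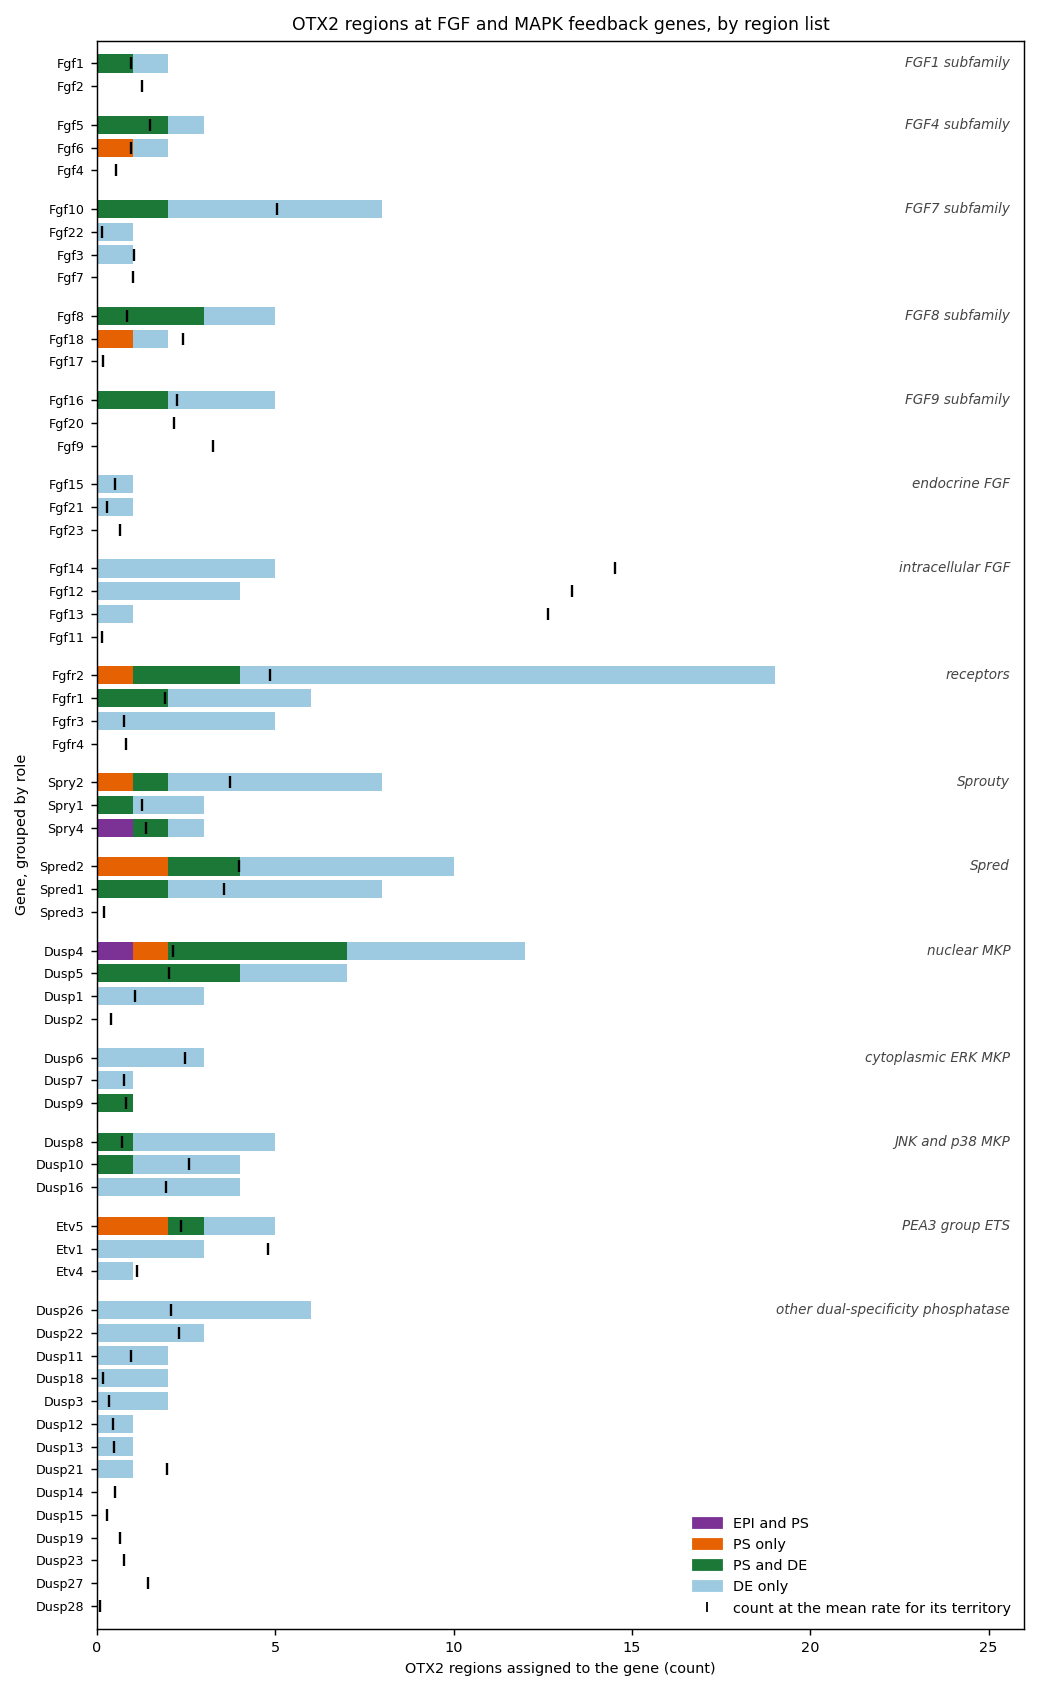
Number of OTX2 regions assigned to each of the 59 placed genes (x axis, count; rows grouped by role), coloured by region list, with a tick at the count that an even spread over all territories would give. Fgfr2 has the most regions (19) and Dusp4 the second most (12). Fgf12, Fgf13 and Fgf14 lie far below their ticks, and 17 genes have 0 regions.

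Regions that cover a gene's promoter are shown with their sequence, since there the bases under the OTX2 signal can be read. RefSeq promoter windows (GRCm38.p6, the same assembly as mm10) run from 250 bases before the annotated start to 50 from it, and were at hand for 44 members. A region overlapped the window of 10 of them (22.7%, against 18.4% of all protein-coding genes with a window). Of these, 9 were DE only regions (20.5% of the 44 members, against 15.9% of all genes) and 1 was a PS and DE region (2.27%, against 2.20%), which are shares near the background. The genes were Dusp5, Spred2, Fgf10, Dusp16, Dusp1, Fgf5, Spry1, Dusp11, Dusp18 and Fgf22, with Dusp5 the one in PS and DE. Below are the 250 bases before the start for 6 of them, 5′ to 3′ on the gene's strand, ranked by stages and then by regions, with the bases of the OTX2 region in capitals. At Fgf5 the region lies mostly past the start, so it is not shown.
Dusp5, chr19:53528895-53529144, plus strand: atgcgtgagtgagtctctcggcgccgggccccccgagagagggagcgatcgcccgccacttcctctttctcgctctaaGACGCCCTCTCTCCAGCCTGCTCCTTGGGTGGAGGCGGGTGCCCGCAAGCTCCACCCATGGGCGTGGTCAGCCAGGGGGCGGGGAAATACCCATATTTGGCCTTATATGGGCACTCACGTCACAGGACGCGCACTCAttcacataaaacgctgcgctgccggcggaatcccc
Spred2, chr11:19924192-19924441, plus strand: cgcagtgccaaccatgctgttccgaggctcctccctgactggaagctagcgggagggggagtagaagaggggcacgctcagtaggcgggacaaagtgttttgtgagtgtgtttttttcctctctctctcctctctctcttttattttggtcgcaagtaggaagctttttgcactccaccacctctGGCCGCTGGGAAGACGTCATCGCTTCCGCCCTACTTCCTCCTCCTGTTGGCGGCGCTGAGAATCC
Fgf10, chr13:118714449-118714698, plus strand: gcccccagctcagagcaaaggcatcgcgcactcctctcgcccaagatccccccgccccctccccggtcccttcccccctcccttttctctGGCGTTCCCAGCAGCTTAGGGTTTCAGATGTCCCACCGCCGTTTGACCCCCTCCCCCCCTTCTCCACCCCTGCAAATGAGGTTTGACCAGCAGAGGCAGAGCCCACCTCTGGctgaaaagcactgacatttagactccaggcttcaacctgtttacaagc
Dusp16, chr6:134792629-134792878, minus strand: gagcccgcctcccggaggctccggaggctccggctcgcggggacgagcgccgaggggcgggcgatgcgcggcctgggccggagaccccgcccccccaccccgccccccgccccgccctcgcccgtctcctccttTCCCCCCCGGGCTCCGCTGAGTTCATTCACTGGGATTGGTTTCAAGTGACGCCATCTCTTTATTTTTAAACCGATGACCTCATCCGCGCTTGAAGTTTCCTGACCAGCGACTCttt
Dusp1, chr17:26508473-26508722, minus strand: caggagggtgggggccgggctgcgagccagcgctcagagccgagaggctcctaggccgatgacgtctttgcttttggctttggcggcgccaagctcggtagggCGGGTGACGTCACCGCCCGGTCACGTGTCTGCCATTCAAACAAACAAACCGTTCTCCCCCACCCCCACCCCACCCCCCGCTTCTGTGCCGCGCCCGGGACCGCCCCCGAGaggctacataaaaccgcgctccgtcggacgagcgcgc
Spry1, chr3:37639697-37639946, plus strand: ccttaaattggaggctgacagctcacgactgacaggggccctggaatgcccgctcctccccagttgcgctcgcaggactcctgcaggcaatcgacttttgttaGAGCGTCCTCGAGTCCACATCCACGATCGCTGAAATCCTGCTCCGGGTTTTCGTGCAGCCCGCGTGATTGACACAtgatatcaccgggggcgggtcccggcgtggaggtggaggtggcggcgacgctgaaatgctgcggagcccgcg

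In Dusp5 the region ran from 172 to 36 bases before the start, in Fgf10 from 160 to 49, in Dusp1 from 147 to 38, in Spry1 from 147 to 73, and in Dusp16 from 116 to 4. In Spred2 it began 65 bases before the start and ended on the first base of the gene. The G and C content of these stretches ran from 52.2% at Dusp16 to 70.0% at Dusp1. Over all promoter windows of all genes the median was 56.3%. The stretch was poorer in G and C than its whole window at Dusp16 (68.7% in the window), Spry1 and Dusp5. It was richer than its window at Spred2, Fgf10 and Dusp1. The whole windows overlapped by a region had a median G and C content of 64.0% in the 10 members and 61.7% in all such genes. OTX2 binds sites with the core TAATCC. Those letters, read on both strands, were in 0 of the 10 member windows with a region, against 7.04% of all genes with such a window. The shorter core GATTA, which TAATCC holds in reverse complement as GGATTA, was in 2 of the 10 (Dusp1 and Fgf22, against 16.9% of all such genes), in both outside the bases of the region. Over the windows of all 44 members, TAATCC was in those of 2 (Dusp27 and Spred3, 4.55%, against 7.56% of all genes) and GATTA in those of 9 (20.5%, against 22.4% of all genes). No match says only that these letters are not in the window.

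Among the FGF ligands, regions shared by PS and DE were found at 5 of the 18 secreted FGFs (against 16.4% of all genes): Fgf1, Fgf5, Fgf8, Fgf10 and Fgf16. The 18 genes held 31 regions, 1.24 times the 24.9 of an even spread, and 10 PS and DE regions, 2.58 times the 3.87 of an even spread. A region of any list was found at 11 of the 18, a share near the 55.0% of all genes, and 7 had 0.

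Fgf8, the streak ligand, held 3 PS and DE and 2 DE only regions in a territory of 46 kb, where an even spread gives 0.837. The 3 shared regions, at chr19:45735220-45735327, 45735427-45735498 and 45735648-45735689 (mm10), lay 0.823 to 1.22 kb outside the gene (19:45736491 to 45742941). They are separated by gaps of 99 and 149 bp, and count as 1 when regions within 500 bp are merged. A DE only region lay 796 bp beyond them, and another lay across the gene, 0.312 kb past its other end. Within 100 kb of Fgf8 a further 9 regions were assigned to Armh3, Kcnip2, Npm3 and Oga, which lie nearer to them.

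Fgf10, a ligand of Fgfr2 in epithelial budding, held 8 regions against 5.06 at an even spread. Both PS and DE regions (chr13:118758987-118759255 and 118761379-118761579) lay deep inside the gene, 44.4 and 46.8 kb past its start. Of its 6 DE only regions, 1 covered the promoter shown above. Fgf5, a marker of the primed epiblast, had 2 PS and DE regions beyond its far end, 30.1 and 39.3 kb past the start. The farther one, chr5:98293186-98293717, was 532 bp wide, the widest of all 170 member regions, whose median was 119 bp. The Fgf5 start itself carried a DE only region. Fgf16 held 2 PS and DE and 3 DE only regions, with a pair of the 2 lists 447 bp apart some 50 kb from the gene (distances 50.2 and 50.8 kb).

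PS only regions were found at 2 of the 18 secreted FGFs (against 5.63% of all genes), too few to compare. Fgf18 had 1 of them 2.27 kb before its start, 997 bp from a DE only region, and Fgf6, a ligand of skeletal muscle, had 1 inside the gene. Fgf3, Fgf15, Fgf21 and Fgf22 had 1 DE only region each. Fgf2, Fgf4, Fgf7, Fgf9, Fgf17, Fgf20 and Fgf23 had 0 regions. Of these, Fgf9 had the longest territory, 178 kb, where an even spread gives 3.24 regions. Fgf4 had 0 of its own, but 7 regions lay within 100 kb of it at Ano1, Ccnd1, Fgf15, Fgf3 and LTO1. The assignment cannot say which gene such regions serve.

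Fgf11 to Fgf14 encode FGF homologous factors, which stay in the cell, do not act as FGFR ligands in the usual way and are known for regulating sodium channels in neurons. They held 10 regions, all DE only, against 40.6 at an even spread (0.246 times). Fgf14 had 5 in a territory of 799 kb, Fgf12 had 4 in 732 kb, Fgf13 had 1 in 695 kb and Fgf11 had 0. They make up 40.6 of the 123 regions that an even spread gives for all members. These counts rest on giving a region inside a gene to that gene. With the nearest gene end used in its place, Fgf14 had 0, Fgf12 had 1 and the 4 genes had 2 in all.

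Among the receptors, Fgfr2 stood at the top of all members with 19 regions, 3.91 times the 4.86 of an even spread over its 267 kb. It had 1 PS only, 3 PS and DE and 15 DE only regions. Of the shared regions, 1 lay inside the gene (chr7:130211787-130211876, 55.0 kb past the start), and the others lay 42.7 and 61.3 kb before the start, at chr7:130309423-130309519 and 130328005-130328172. The PS only region, chr7:130067016-130067092, lay 95.4 kb beyond the far end, close to the 100 kb limit of assignment, and was lost with a limit of 50 kb. DE only regions were spread over both flanks and the gene body, with 1 of them 0.405 kb past the start.

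Fgfr1, the receptor that streak cells need, had 2 PS and DE regions 34.1 and 38.3 kb outside the gene and 4 DE only regions. A DE only region (chr8:25518651-25518766) spanned the end of the gene at the lower coordinate, and another lay 278 bp from a PS and DE region. Fgfr3 had 5 DE only regions in a territory of 41 kb (6.70 times an even spread) and 0 in any list that includes PS. Fgfr4 had 0, although 2 regions lay within 100 kb of it, both at Nsd1. The 4 receptors together held 30 regions against 8.31 at an even spread, and 19 of the 30 belong to Fgfr2.

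**Figure D3:**
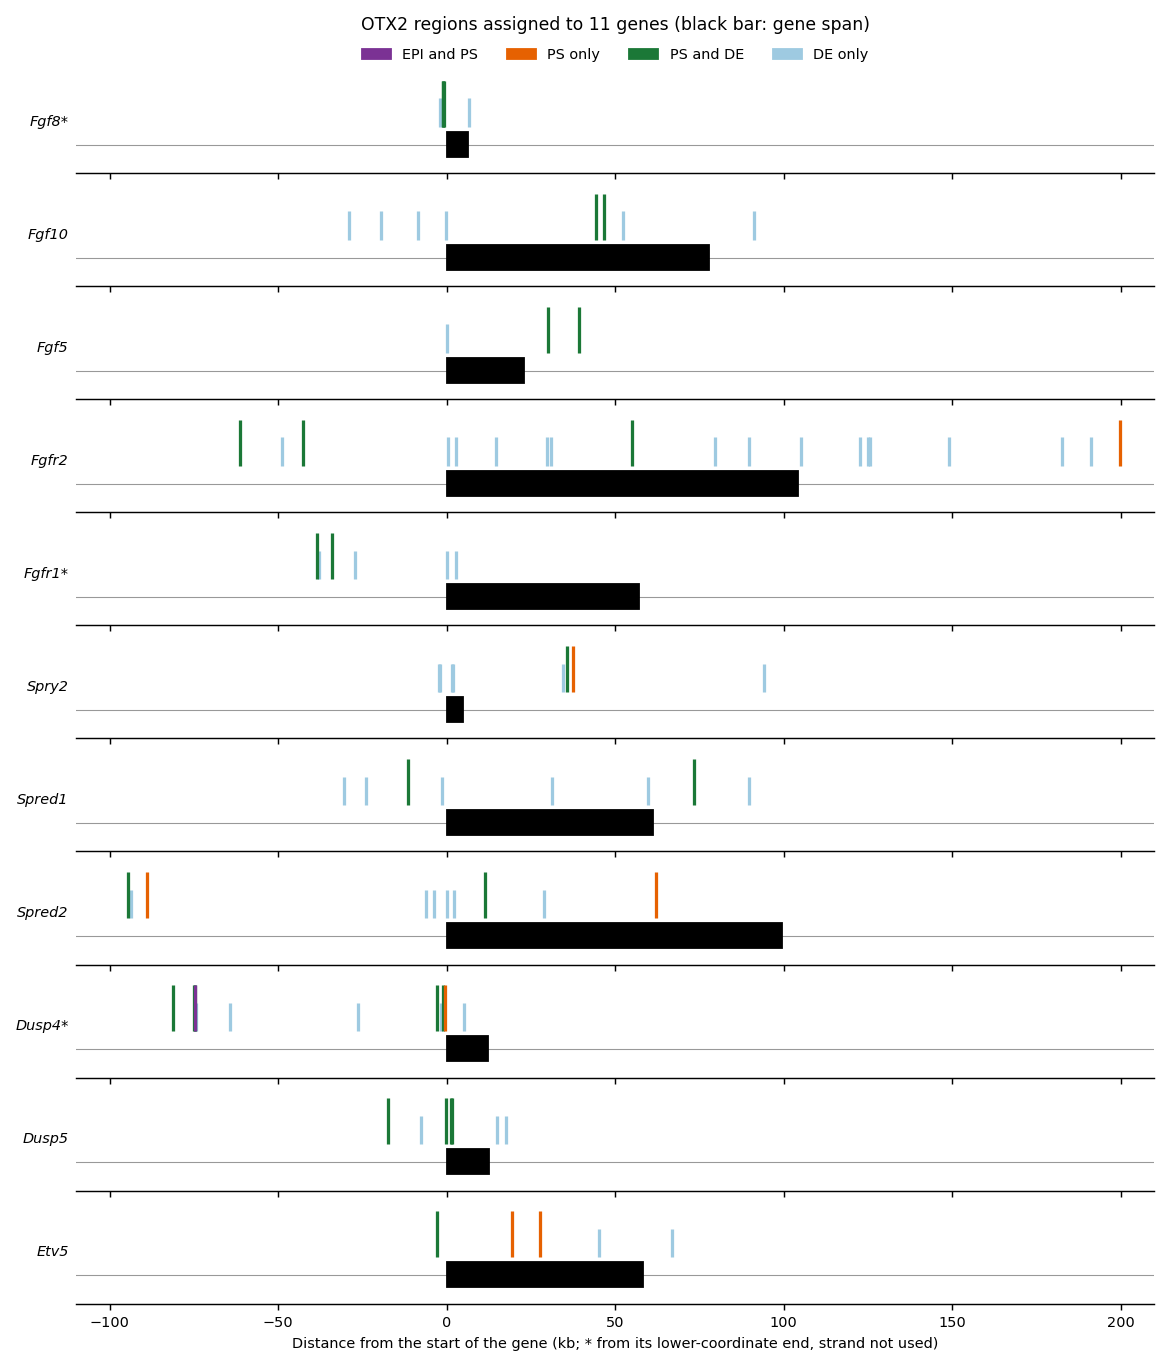
OTX2 regions (vertical lines, coloured by region list; DE only lines are shorter) at 11 genes, plotted by distance in kb from the start of the gene, with the gene span as a black bar. Regions before the start are at negative distances. For Fgf8, Fgfr1 and Dusp4, marked with an asterisk, distance is from the end at the lower coordinate. Fgfr2 has regions over its whole span and both flanks, while those of Fgf8 lie within 2.12 kb of the gene.

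The Sprouty and Spred inhibitors had regions in 5 of 6 placed genes (against 55.0% of all genes), and all 5 had a PS and DE and a DE only region (against 16.4% and 50.4% of all genes). These are 6 genes of 2 families. Together they held 32 regions against 14.1 at an even spread (2.27 times), with 7 PS and DE regions against 2.19 (3.20 times). Spry2 had 1 PS only, 1 PS and DE and 6 DE only regions. The first, chr14:105859389-105859493, and the second, chr14:105860999-105861173, lay with a DE only region in one stretch 29.5 to 32.5 kb beyond the gene, while 4 of the DE only regions flanked or lay in the gene within 2.19 kb of it. Spry1 had a DE only region on its promoter, as shown above, and a PS and DE region (chr3:37653997-37654160) 9.48 kb beyond the gene, 450 bp from a second DE only region.

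Spred2 held 2 PS only, 2 PS and DE and 6 DE only regions, 2.51 times an even spread. Its PS only region at chr11:19986539-19986723 lay inside the gene, 62.2 kb past the start. The other PS only region and a PS and DE region lay 89.0 and 94.6 kb before the start, outside a limit of 50 kb. Spred1 had 2 PS and DE and 6 DE only regions, with the shared ones 11.5 kb before the start and 12.3 kb beyond the far end. Spred3 had 0 regions in a territory of 11 kb, with 6 within 100 kb at Catsperg1 and Ryr1.

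The 10 MAP kinase phosphatases held 40 regions against 14.8 at an even spread (2.70 times), and 12 PS and DE regions against 2.31 (5.20 times). All but Dusp2 had a region (against 55.0% of all genes). Most came from the nuclear phosphatases, which ERK signalling itself induces: Dusp4 had 12 regions and Dusp5 had 7. Outside Dusp4 and Dusp5, the PS and DE regions of this group were 1 each at Dusp8, Dusp9 and Dusp10.

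Dusp4 was the only member with regions of all 4 lists: 1 EPI and PS, 1 PS only, 5 PS and DE and 5 DE only, 5.64 times an even spread. Of these, 8 fell in a pair of stretches. Between 34732591 and 34733217 on chromosome 8, about 75 kb outside the gene, lay in order a PS and DE, an EPI and PS, a PS and DE and a DE only region, with gaps of 28, 110 and 97 bp. The other stretch lay next to the gene (8:34807610 to 34819894), from a PS and DE region of 379 bp at 34804506 to 34804884 to the PS only region at 34807158 to 34807314, 0.374 kb from the gene. With a limit of 50 kb, Dusp4 had 0 EPI and PS, 2 PS and DE and 3 DE only regions. No member had regions of all 4 lists at that limit, and none did with regions of at least 150 bp or with gene-end regions left out. The share of all genes with regions of all 4 lists is not given here. How regions this close were matched between stages, and so put into different lists, was not tested.

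Dusp5, a phosphatase specific for ERK, had its PS and DE regions at the gene itself. One covered the promoter shown above, and a pair lay 1.14 and 1.66 kb past the start (chr19:53530176-53530399 and 53530724-53530890, 324 bp apart). The remaining one lay 17.3 kb before the start, and 3 DE only regions flanked the gene. Dusp1 had 3 DE only regions, on its promoter and 0.45 and 6.48 kb before the start.

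Dusp6, the cytoplasmic ERK phosphatase that is a common readout of FGF signalling, had 3 DE only regions and 0 in the lists that include PS. They lay 18.5 and 27.0 kb before and 35.8 kb past the start, none at the gene, and their number was 1.21 times an even spread. Within 100 kb of Dusp6 a further 4 regions were assigned to Poc1b, and 2 of these were PS and DE regions. Dusp9 had a single PS and DE region, chrX:73639348-73639425, across the gene end at the lower coordinate (73639389), and Dusp7 had 1 DE only region. Of the phosphatases of JNK and p38, Dusp8 had 1 PS and DE and 4 DE only regions in 38 kb (7.23 times an even spread), Dusp10 had 1 and 3, and Dusp16 had 4 DE only regions.

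The other 14 Dusp genes encode phosphatases outside the MAP kinase phosphatase group, many with other substrates. They held 18 regions, all DE only, 1.45 times the 12.4 of an even spread, and 0 PS and DE regions against 1.93. The regions were at 8 of the 14 genes, a share near the 50.4% of all genes with a DE only region. Dusp26 had 6 of the 18, from 0.2 to 87.0 kb from the gene, and 3 of these with a limit of 50 kb. With these 14 genes left out, which was decided after their counts were seen, PS and DE regions were found at 18 of 45 members (40.0%, against 16.4% of all genes) and DE only regions at 33 (73.3%, against 50.4% of all genes). The first share is higher than with all 59 only because the genes left out had 0 PS and DE regions.

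**Figure D4:**
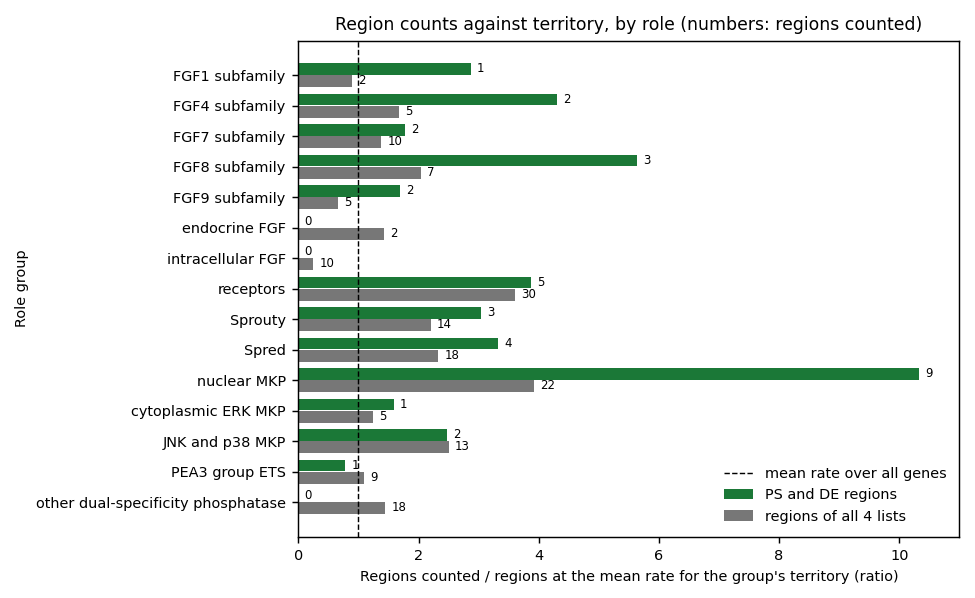
Ratio of regions counted to regions at an even spread over the territories of each role group (x axis), for PS and DE regions (green) and for all 4 lists (grey), with the counts beside the bars and a dashed line at an even spread. The nuclear MAP kinase phosphatases (MKP) have the longest green bar, from 9 regions at Dusp4 and Dusp5. The intracellular FGFs, the endocrine FGFs and the other phosphatases have no PS and DE region.

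Of the ETS factors of the PEA3 group, Etv5 had 2 PS only, 1 PS and DE and 2 DE only regions. Its PS only regions (chr16:22411930-22412018 and 22420008-22420088) both lay inside the gene, 7989 bp apart, and its shared region (22442255 to 22442427) lay 2.77 kb before the start. Etv1 had 3 DE only regions and Etv4 had 1, with 0 in the lists that include PS. Within 100 kb of Etv4, however, lay 1 EPI and PS, 1 PS only and 1 PS and DE region, assigned to Arl4d or Dhx8. The 3 genes held 9 regions against 8.26 at an even spread (1.09 times).

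The EPI and PS list touched 2 members by the assignment rule. Counted within 100 kb whatever gene is nearer, such a region lay near 9 members (15.3%, against 5.88% of all genes). Beside Dusp4, Spry4 had such a region on chromosome 18, at 38601429 to 38601504, 0.119 kb outside the gene, while its PS and DE region (38576182 to 38576436) and its DE only region lay 9.94 and 12.0 kb beyond the other end. Fgf1, also on chromosome 18, had 1 PS and DE region and 1 DE only region, both inside the gene. A count of 2 gives no basis for comparison with the 1.46% of all genes.

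Member regions lay outside genes more often than regions at large. Of the 35 PS and DE regions, 28.6% lay inside a member over 1 kb from its ends, against 48.9% of all assigned PS and DE regions, and 40.0% lay 10 to 100 kb outside, against 27.1%. For DE only regions these shares were 33.1% against 48.1% inside and 32.3% against 24.2% at 10 to 100 kb. Regions within 1 kb of an end made up 8.57% of the members' PS and DE regions (11.7% over all genes) and 15.3% of their DE only regions (15.9% over all genes). Counted by gene, 20 members had a region within 1 kb of one of their own ends (33.9%, against 21.1% of all genes). PS and DE regions were within 1 kb of an end at 3 members (5.08%, against 2.78% of all genes) and DE only regions at 16 (27.1%, against 18.3% of all genes). The median gene length was 14.4 kb for members and 17.2 kb for all genes, and some members are short genes in long territories, such as Spry2, whose 4.87 kb lie in 205 kb. The part of gene length in the position shares was not tested. Member widths had a median of 131 bp for PS and DE (121 bp over all genes) and 118 bp for DE only (118 bp over all genes), and 91 bp for the 9 PS only regions (114 bp over all genes).

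**Figure D5:**
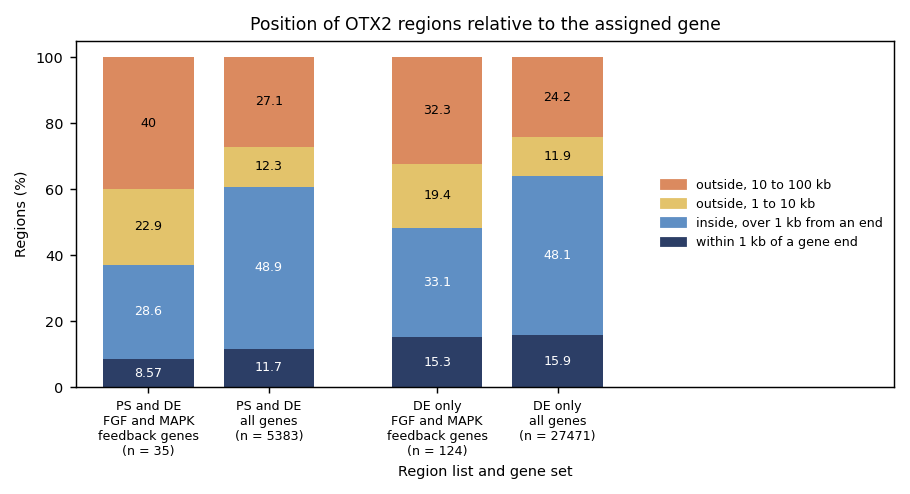
Percentage of PS and DE and of DE only regions (y axis) in 4 position classes relative to the assigned gene, for FGF and MAPK feedback genes and for all genes, with the number of regions under each bar. The class inside the gene is smaller for the FGF and MAPK feedback genes in both lists (28.6% against 48.9%, and 33.1% against 48.1%).

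Regions of different lists lay side by side at several members. Of the 170 regions, 19 (11.2%) lay within 1 kb of a region of another list, against 5.77% of all assigned regions. They belong to 7 genes: Dusp4, Fgf8, Fgf16, Fgf18, Fgfr1, Spred2 and Spry1. Dusp4 holds the most of them, in the pair of stretches described above, and each other gene has a single pair. The share without Dusp4 was not computed. Joining regions of all lists that lie within 500 bp left 155 sites of the 170.

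Other genes of the same route were counted for reference, from a list of 48 that holds adaptors, RAS and RAF kinases, heparan sulphate enzymes and early targets. PS and DE regions were found at 13 of them (27.1%, against 16.4% of all genes) and DE only regions at 38 (79.2%, against 50.4% of all genes). The 48 genes held 158 regions against 93.1 at an even spread. The most were at Ext1, a heparan sulphate polymerase (14 regions), and Ndst1, a heparan sulphate sulphotransferase (12, of which 6 were PS and DE). Frs2, the adaptor that links FGF receptors to RAS, held 9, with 1 PS only, 3 PS and DE and 5 DE only. Ksr1, a scaffold of the MAP kinase route, held 9, and Braf, Rps6ka1 and Fos held 8 each. The PS and DE share of this list lay near the 30.5% of the members, and its DE only share was above their 69.5%. A region of any list was found at 83.3% of the 48, against 71.2% of the members. No difference between the 48 genes and the members was tested.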

How the data were processed

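CUT&RUN was made from 500000 cells per sample with anti-HA (diluted 1:100) or IgG, per the labels' protocols. Per the submitters' processing notes, the build was mm10 and the tools were MACS2 2.2.6, bedtools 2.30, Picard 2.26.10, SAMtools 1.14 and Bowtie2 2.3.5.1. For their order, the peak threshold, the use of IgG and the pooling of libraries, the labels give nothing. The authors deposited 4 lists of 3 columns (chromosome, start, end), with no value per library. Starts were converted to count from 1, and 2 regions on a scaffold were left out. Gene spans and promoter sequences came from RefSeq (GRCm38.p6), with 21774 of 21900 protein-coding genes placed on chromosomes. Genes listed outside the longest ordered run of their chromosome were taken as unplaced. Territories were measured by assigning positions every 1 kb with the rule used for regions. Counts at an even spread are territory times the assigned regions per kb of all territories. The assignment was checked against a direct search (Python 3.11.15, pandas 2.3.3). No test was run and no samples were compared. Members, role groups and lists were chosen with earlier results of these data known. Named genes are members with a region in a list that includes PS, those with the most DE only regions, members with 0, and the pathway genes with the most regions. Others are named after their values were seen. Alternatives changed the distance limit, the assignment, the width minimum, merging and gene-end regions.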

Additional observations from a re-analysis of the deposited data

How the results depend on the processing

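Alternatives for 15 counts gave 130 values, of which 90 stayed within 1.5 times the reported count and 40 did not. With the nearest gene end inside or not, any base in place of the midpoint, or regions merged within 500 bp, none of these 15 counts moved further than that. In all 8 alternatives to the assignment and to the regions used, except that regions of at least 150 bp left 0 EPI and PS members, the share of members with a region was above that of all genes in each list. The counts themselves followed the width minimum. With regions of at least 150 bp, members had 0 EPI and PS, 2 PS only, 14 PS and DE and 46 DE only regions, at 0, 2, 11 and 25 genes (18.6% against 6.74% of all genes for PS and DE). Then 6 members had a region at a gene end and 7 had a PS and DE region near a DE only region. Of the 48 pathway genes, 0, 2, 6 and 20 had a region (against 0.390%, 1.67%, 6.74% and 25.3% of all genes). With the wider part of each list (median width and above), members had 1 EPI and PS, 3 PS only, 20 PS and DE and 62 DE only regions. They were at 1, 3, 12 and 30 genes. These were 1.69%, 5.08%, 20.3% and 50.8% of members, against 0.744%, 2.93%, 9.32% and 33.4% of all genes. Then 11 members had a gene-end region and 9 had a PS and DE region near a DE only region. Pathway genes with a region numbered 0 for EPI and PS, 3 for PS only and 25 for DE only (against 0.744%, 2.93% and 33.4% of all genes). For the gene-end and near-region counts at these width settings, no share over all genes is given here. Within 50 kb there was 1 EPI and PS region at 1 member (1.69%, against 1.38% of all genes). Within 1 Mb there were 4 at 3 members (5.08%, against 1.62% of all genes), with 2 pathway genes. With gene-end regions left out there was 1 at 1 member (1.69%, against 1.31% of all genes), and 0 pathway genes. Counting every region within 100 kb whatever gene is nearer, chosen after seeing the data, gave 9 EPI and PS regions near 9 members (15.3%, against 5.88% of all genes), 21 PS only near 15 (25.4% against 17.9%), 66 PS and DE near 35 (59.3% against 45.8%) and 307 DE only near all 59 (against 87.3%). By that count all 17 members with 0 assigned regions have one within 100 kb. Of all genes, with or without an assigned region, 89.1% have one. Of 800 counts by named member and list, 97 moved by more than 1.5 times or to or from 0: 41 with regions of at least 150 bp, 32 with the wider part of each list, 8 within 50 kb, 5 within 1 Mb, 6 without gene-end regions, 4 by nearest gene end, 1 on merging and 0 by any base. By nearest gene end, Fgf14 had 0 and Fgf12 1 DE only region, and Fgf1 had 4 DE only and 1 PS only in place of 1 and 0. On merging, Fgf8 had 1 PS and DE region. With regions of at least 150 bp, Fgf8, Spred1 and Spred2 had 0 PS and DE regions and Fgfr3 had 0 DE only. The motif GATTA was in the promoter windows of 9 of 44 members, against 2 for TAATCC. No paired analysis was possible because no value per library was used. The lists give no depth, so a gene with 0 regions is not shown to lack binding.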
